A study of Rattus norvegicus with 98 samples.

Results

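A set of 5429 windows of 1 kb was occupied by H3K27ac peaks in 4 or more libraries of fluoxetine-treated rat brain and in no library of untreated rat brain. The Rn5 genome was divided into 1 kb windows on chromosomes 1 to 20, and a window was counted as occupied in a library when the peaks of that library covered 500 bp or more of it. Of 157809 windows occupied in 4 or more libraries of either treatment, 3.44% had this FT-only pattern. The mirror set, occupied in 4 or more untreated and in no treated library, held 971 windows, or 0.615%, and serves as the control. These windows were selected on the occupancy values themselves, so the counts, the peak strengths, the distances and the agreement of replicates given for them are descriptions without a test. At least 1 library occupied 284178 windows.

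The libraries came from male Long-Evans rats, aged 2 months when the treatment groups were formed. They drank water containing fluoxetine at 18 mg/kg/day for 6 weeks (FT) or drinking water alone (Sham). Tissue was taken after these 6 weeks. H3K27ac was profiled by chromatin immunoprecipitation and sequencing in tissue micropunched from single brain regions, and each library pooled 10 animals. The 24 regions used here gave 46 FT and 46 Sham peak lists. MPOA had no second FT list, arc had no second Sham list and PVN had 1 list of each treatment, while the remaining 21 regions had 2 lists of each. The habenula (HB), with 1 list of each treatment, was left out of the rule.

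H3K27ac is the acetylation of lysine 27 on histone H3. It marks promoters and enhancers in an active state, and because enhancers are used differently by different cell types, its pattern over the genome tells brain regions apart. Fluoxetine is a selective serotonin reuptake inhibitor that blocks the serotonin transporter, and it is given over weeks because its clinical effects build slowly. In tissue that holds many cell types, a peak that appears or vanishes can reflect more or fewer cells of a type or a change of the mark within cells, and these cannot be told apart here. The identity of the punched tissue could not be checked against marker genes, as no annotation of Rn5 was used here and the windows are given by position alone. The PVN label does not say which paraventricular nucleus was meant.

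The lists of the 2 treatments were not of equal length. The FT lists held 47539 ± 5179 peaks (SD, n = 46 libraries) and occupied 76165 ± 9558 windows, against 37667 ± 8936 peaks and 56598 ± 16912 windows in the Sham lists. The number of reads behind each list was not in the peak lists, so the depth is unknown. When the lists of each region were shortened to the length of its shortest list, keeping the peaks of highest −log10(P-value), 1781 FT-only windows (1.35% of those tested) and 1202 Sham-only windows (0.91%) were found. Shortening every list to 19378 peaks, the shortest in the set, left 1380 FT-only windows (1.68%) and 658 Sham-only windows (0.8%). The excess of FT-only over Sham-only windows was thus far smaller at matched length, and part of the windows changed. Of the 5429 windows, 1318 (24.3%) were FT-only when each region was matched, which is 74.0% of the 1781 found there. At 19378 peaks each, 458 (8.44%) were still FT-only, which is 33.2% of the 1380.

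A common limit on strength had another effect, and it does not bring the lists to equal length. Among peaks outside the windows of their own treatment, 27.3% ± 6.94 lay under a −log10(P-value) of 6 in Sham lists and 21.5% ± 2.76 in FT lists. With peaks of −log10(P-value) of 6 or more, 5384 windows were FT-only (3.99%) and 224 Sham-only (0.166%), and with peaks of 10 or more the counts were 4701 (4.37%) and 49 (0.0456%). The windows found this way were in part others. Of the 5384, 2559 (47.5%) belonged to the 5429. Of the 4701, 1071 (22.8%) did, and 3630 (77.2%) were occupied in a full Sham list by a peak under 10. Of the 224 Sham-only windows, 164 (73.2%) were occupied in a full FT list, and 30 (61.2%) of the 49 were.

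Most windows sat close to the threshold on the number of libraries. Exactly 4 FT libraries occupied 2529 windows (46.6%) and exactly 5 occupied 1290 (23.8%), while 494 windows (9.1%) were occupied in 8 or more and 9 in 15 or more. The median was 5 libraries from 4 regions and the highest was 20 libraries. Just outside the rule lay 4987 windows with 3 FT and no Sham library, and 8438 windows with 4 or more FT libraries and a single Sham library. The latter outnumbered the FT-only windows themselves. On the Sham side, 1033 windows had 3 Sham and no FT library, and 939 had 4 or more Sham libraries and a single FT library.

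The windows were mostly solitary. Joining those that adjoin gave 5187 loci, of which 4950 (95.4%) were a single window, and no locus was longer than 3 windows. The share of tested windows with the FT-only pattern ran from 2.67% on chromosome 12 to 4.25% on chromosome 2, so no chromosome was without them or held most of them.

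Nucleus accumbens, medial prefrontal cortex and amygdala held the windows most often. The NaCcore, the core of the nucleus accumbens and a target of dopamine neurons in reward, had 1619 and 1654 FT-only windows in its FT replicates 1 and 2. The prelimbic cortex (PLC) had 1500 and 1245, and the neighbouring infralimbic cortex (ILC) had 1213 and 936. The basolateral amygdala (BLA), known for fear and emotional learning, had 1183 and 1185, and the central medial amygdala (CMA) had 1022 and 1218. In these 5 regions both FT replicates were higher than either replicate of any region outside the accumbens, cortex and amygdala.

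The NaCshell, the shell of the accumbens, was the region in which the FT replicates differed most. FT NaCshell replicate 2 held 2067 of the windows, the highest count of any library, and replicate 1 held 328. Its replicate 1 list was also the shortest FT list, with 24429 peaks and 33114 occupied windows against 80022 windows in replicate 2. At the low end were the locus coeruleus (LC), the noradrenergic nucleus of the brainstem, with 175 and 41 windows, the serotonergic raphe with 238 and 141, and the ventral dentate gyrus (venDG) with 70 and 326.

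**Figure D1:**
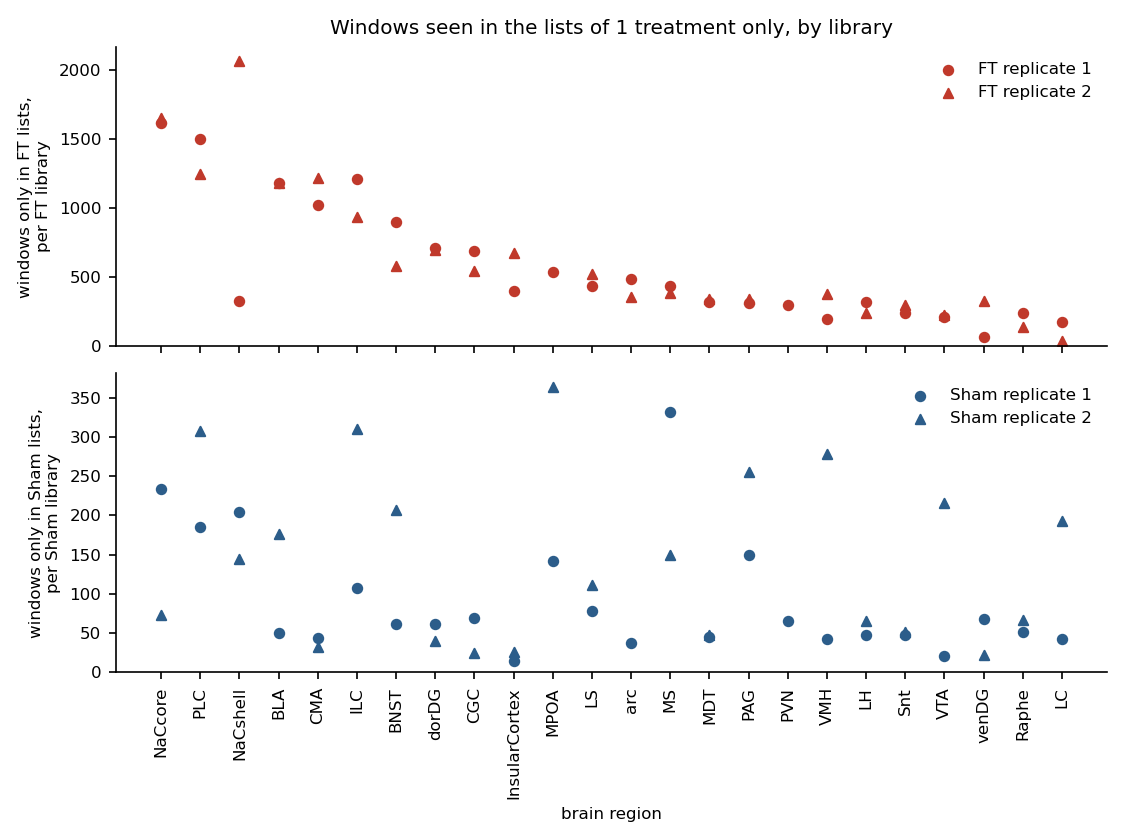
Number of 1 kb windows per library (vertical axes) that were seen in the lists of 1 treatment only, with brain regions on the horizontal axis in the order of their mean FT-only count; circles are replicate 1 and triangles replicate 2, with FT libraries above and Sham libraries below. NaCcore, PLC, BLA, CMA and ILC lie at 936 or more in both FT replicates, and the replicates of NaCshell lie at 328 and 2067.

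Some regions rich in FT-only windows had short Sham lists and some did not. PLC occupied on average 82853 windows in FT and 30144 in Sham, ILC occupied 76602 and 33716, and NaCcore occupied 77532 and 46162. The Sham means of BLA and CMA, 55348 and 58456 windows, were near the mean of all Sham lists. MPOA and MS had short Sham lists, of 37064 and 38148 windows, and 537 and 413 FT-only windows on average. InsularCortex, whose mean was 79463 windows in FT and 79693 in Sham, held 538. Across the 24 regions the mean FT-only count correlated with the FT minus Sham difference in occupied windows (Pearson r = 0.61, Spearman rho = 0.65) and inversely with the length of the Sham lists (r = −0.57, rho = −0.54), and hardly with the length of the FT lists (r = 0.1, rho = 0.22). These values describe regions that share pooled animals, and the 2 axes share the same lists. For Sham-only windows the correlation with the length of the Sham lists was r = −0.89 (rho = −0.85), so the Sham lists with the fewest windows held the most Sham-only windows.

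Seen by anatomy, 57.9% of the FT-only windows (3144) were occupied in telencephalic libraries alone, that is in cortex, accumbens, septum and bed nucleus of the stria terminalis (BNST), amygdala or dentate gyrus. Of the Sham-only windows, 8.65% (84) were limited in this way. The share over all windows of 4 or more Sham libraries was not counted, so this value has no base beside it. Of all windows occupied in 4 or more FT libraries, 14.1% (21584) were limited to the telencephalon. These include windows of most FT libraries, which cannot be limited to the telencephalon. At an equal number of FT libraries, the share was 61.2% of FT-only and 32.0% of other windows at 4 libraries, 59.8% and 28.1% at 5, 55.3% and 27.3% at 6 or 7, and 46.2% and 28.4% at 8 or 9. The accumbens gave 20.1% of all library-by-window occurrences of FT-only windows, against 7.59% over all windows of 4 or more FT libraries. The amygdala gave 16.3% against 9.47%, and the cortex 25.5% against 18.4%. The brainstem gave 7.88% against 21.6%, and the diencephalon with the preoptic area 12.3% against 21.7%. Part of this lean was shared by the Sham-only windows, set against all windows of 4 or more Sham libraries. There the accumbens gave 12.2% against 6.59%, the cortex 19.5% against 15.4% and the brainstem 20.4% against 25.3%. The diencephalon with the preoptic area gave 21.2% against 22.2%. The amygdala went the other way, with 5.6% against 9.02%. The commonest combinations were cortex alone with 620 windows (11.4%), amygdala with accumbens with 471 (8.68%) and amygdala with accumbens, septum and BNST with 360 (6.63%). Their shares over all windows of 4 or more FT libraries were not counted. The cortex had 8 FT libraries and the amygdala and accumbens 4 each, so the order depends in part on the number of libraries. Sham lists of PLC, ILC and NaCcore were short, as given above, and the part of list length in this anatomical pattern was not tested.

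In the full lists, the peaks over FT-only windows were weak for their libraries. DFilter, the peak caller used by the authors, gives each peak a −log10(P-value), which ran from 4 to a ceiling of 200 in these lists. The median per library of the peaks over FT-only windows was 6.99 ± 1.11 (SD, n = 46 FT libraries), against 13.5 ± 1.88 for all other peaks of the same lists, and it was lower in 46 of 46 libraries. Peaks with a value under 6 made up 40.7% ± 10.5 of the peaks over the windows and 21.5% ± 2.76 of other peaks. Their median width was 1320 ± 130 bp against 1639 ± 80.2 bp, also narrower in 46 of 46 libraries. Only 16.3% ± 9.35 of them were among the best 19378 peaks of their library. When every list was cut to that length and the windows were chosen anew, the peaks over FT-only windows had a median −log10(P-value) of 30.0 ± 8.92 against 52.6 ± 15.3 for other peaks, still lower in 46 of 46 libraries. Their width was then 2032 ± 151 bp against 2096 ± 123 bp, and narrower in 23 of 46. Other peaks include those of windows occupied in most libraries, and strength and width were not compared at an equal number of libraries.

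Sham-only windows lay under weaker peaks still. In the 46 Sham libraries their peaks had a median −log10(P-value) of 4.85 ± 0.369 and a median width of 926 ± 107 bp, against 10.9 ± 2.37 and 1491 ± 163 bp for other peaks. Their strongest peak reached 10 or more in 57 of 971 windows (5.87%), whereas that of an FT-only window did so in 3207 of 5429 (59.1%). In 704 FT-only windows (13%) every FT library that occupied the window did so with a peak of 10 or more, compared with 14 Sham-only windows (1.44%). These shares were not counted over other windows of 4 or more libraries. Other peaks too were stronger in FT lists, at 13.5 against 10.9. FT-only windows that a Sham peak reached into had a median of 9.08, and those beyond 10 kb from any Sham peak 5.66.

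**Figure D2:**
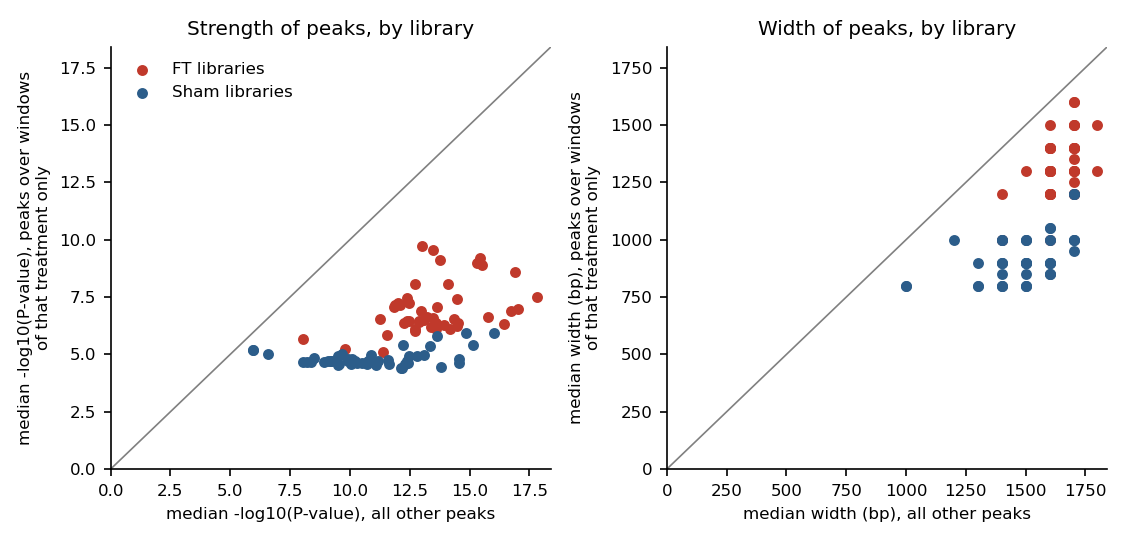
Median −log10(P-value) (left) and median width in bp (right) per library, with all other peaks of the list on the horizontal axes and the peaks over windows seen only in that treatment on the vertical axes; red points are the 46 FT libraries, blue points the 46 Sham libraries, and the grey line marks equal values. Every library lies under the line in both plots.

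Many FT-only windows lay at the flank of a peak that Sham libraries also had. A Sham peak reached into 3371 of the 5429 windows (62.1%) without covering 500 bp of it. In 2078 windows (38.3%) the widest Sham coverage was 400 to 499 bp, just under the limit, and in 1327 (24.4%) 5 or more Sham libraries reached in. A neighbouring window was occupied in Sham for 3068 (56.5%). Among the peaks over FT-only windows 69.8% ± 6.79 shared a base with a Sham peak of some library. For all other peaks of the FT lists the share was 98.2% ± 1.27. The rule favours this contrast, since no Sham library may cover 500 bp of a chosen window. The centre of the peak lay within the window in 56.5% of the 28255 library-by-window occurrences. Sham-only windows were less often of this kind, with 254 (26.2%) reached by an FT peak, 169 (17.4%) beside a window occupied in FT and the centre of the peak inside the window in 88.6% of 5368 occurrences. Of the peaks over them 34.4% ± 18.4 shared a base with an FT peak, against 97.7% ± 3.06 of other Sham peaks, a contrast that the rule favours as well.

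The median distance from an FT-only window to the nearest Sham peak of any region was therefore 0 bp, the third quartile was 3248 bp and the largest distance was 206398 bp. The 2058 windows that no Sham peak touched lay at a median of 5086 bp, and 573 windows (10.6%) lay more than 10 kb away. Sham-only windows had a median distance of 9220 bp to the nearest FT peak and a largest distance of 482999 bp, with 473 (48.7%) beyond 10 kb. When only Sham lists of the same region were considered, the median distance per FT library was 5609 ± 5285 bp, and that per Sham library to FT lists of its region was 50416 ± 43228 bp. Peaks were weaker away from Sham peaks. The median over windows of −log10(P-value) was 9.08 with a width of 1550 bp in touched windows, 5.9 with 1150 bp in untouched windows within 10 kb, and 5.66 with 1200 bp beyond 10 kb.

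**Figure D3:**
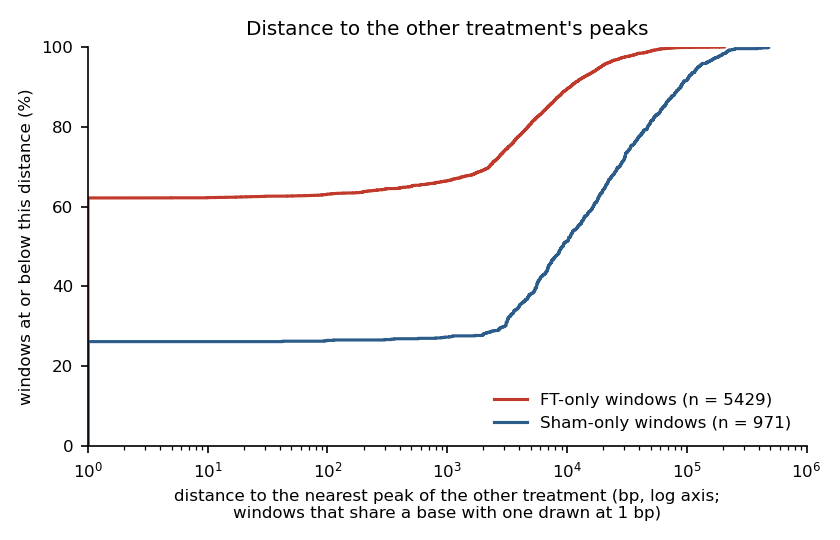
Share of windows in percent (vertical axis) at or below a given distance in bp from the nearest peak of the other treatment (horizontal log axis, with windows that share a base with such a peak drawn at 1 bp), for the 5429 FT-only windows in red and the 971 Sham-only windows in blue. The red curve begins at 62.1% and the blue curve at 26.2%.

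The 2 FT replicates of a region, made from separate pools, occupied the same FT-only windows less often than they shared other windows. Of the FT-only windows occupied in either replicate, both replicates occupied 31.3% ± 17.0 (SD over 22 regions). For the remaining windows of 4 or more FT libraries this share was 74.7% ± 8.93, and it was higher in 22 of 22 regions. The agreement was highest in NaCcore (62.9%), dorsal dentate gyrus (dorDG, 60.1%) and PLC (56.3%), followed by the periaqueductal grey (PAG, 51.8%), CMA (47.6%) and BLA (46.3%). It was 14.4% in NaCshell, where 302 of 2093 windows were in both, and lowest in LC with 5.37%.

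Much of this gap went with the number of libraries in which a window was occupied. For windows of 4 or 5 FT libraries the agreement was 29.6% ± 17.2 for FT-only and 32.6% ± 18.5 for other windows. At 6 or 7 libraries it was 31.3% ± 18.1 against 40.9% ± 16.8, at 8 or 9 it was 34.9% ± 17.2 against 44.1% ± 14.8, and at 10 to 20 it was 37.7% ± 18.0 against 51.6% ± 12.7. In this last range the other windows had more libraries each, on average 14.3 against 11.3. The FT-only mean was thus the lower one in each range, by fewer points than over all windows. Windows of 21 or more FT libraries, none of which was FT-only, agreed by 84.6% ± 9.48. In Sham-only windows the agreement of the Sham replicates was 11.5% ± 6.56, against 62.0% ± 13.1 for other windows of 4 or more Sham libraries, and at 4 or 5 libraries it was 9.79% ± 6.64 against 23.5% ± 21.5.

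Counted by window, 4582 FT-only windows (84.4%) were occupied in both FT replicates of at least 1 region, and 450 Sham-only windows (46.3%) were occupied in both Sham replicates of one. A window of 4 or more libraries can meet this criterion in any of its regions, which is why the share is larger than the agreement within a region. Libraries of both replicate numbers occupied 5320 of the FT-only windows (98.0%), replicate 1 alone 54 and replicate 2 alone 55. Neither share was counted for the other windows of 4 or more FT libraries, so neither sets FT-only windows apart from them.

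**Figure D4:**
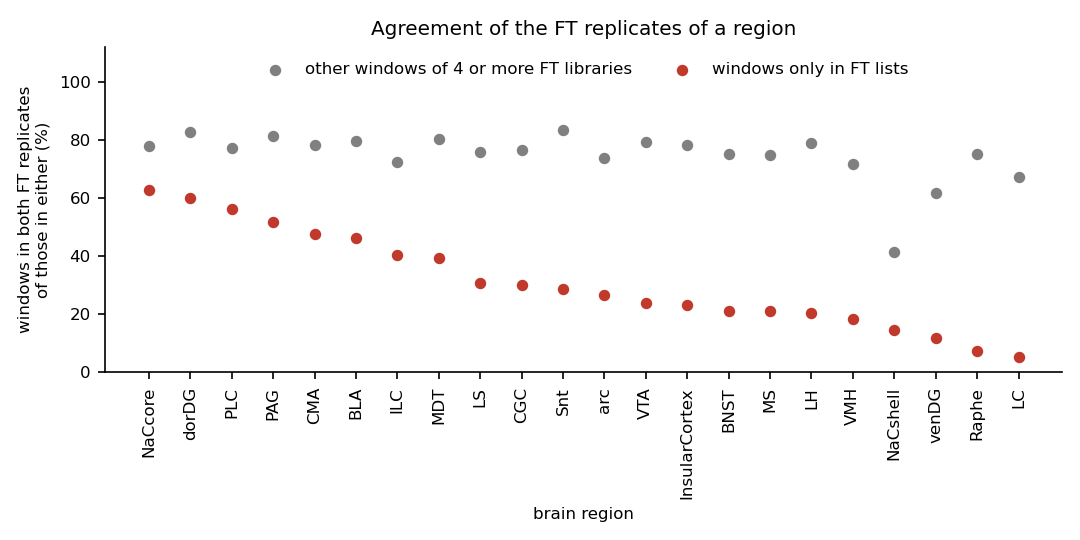
Windows occupied in both FT replicates as a percentage of those occupied in either (vertical axis), for the 22 regions with 2 FT lists (horizontal axis, in descending order); red points are FT-only windows and grey points the other windows of 4 or more FT libraries. The red point lies below the grey point in 22 of 22 regions, and the 6 red points at the left lie between 46.3% and 62.9%.

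Of the 8 loci with most FT libraries, 7 were reached by Sham peaks that covered less than 500 bp. The window at chr18:73776001-73777000 was occupied in 20 FT libraries of 16 regions, with both replicates in BLA, the lateral hypothalamus (LH), the medial septum (MS) and dorDG, and with −log10(P-value) from 4.2 to 9.77. No Sham library covered 500 bp of it, but 8 reached into it, among them Sham CMA replicate 1 with 499 bp and Sham InsularCortex replicate 1 with 491 bp. The window at chr10:14433001-14434000 was occupied in 18 FT libraries with values from 5.16 to 34.9, while 7 Sham libraries reached in by up to 428 bp. The window at chr10:45082001-45083000 was occupied in 17 FT libraries and touched by exactly as many Sham libraries, by up to 499 bp.

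At chr1:72685001-72686000 the 15 FT libraries had wide and strong peaks, with a median width of 3400 bp and −log10(P-value) from 13.7 in FT ILC replicate 1 to 36.0 in FT arc replicate 1, and 14 Sham libraries reached in by up to 439 bp. The window at chr8:56408001-56409000, in 16 FT libraries, was touched by 23 Sham libraries, more than had occupied it in FT. At chr5:82444001-82445000 a further 16 FT libraries occupied the window, including both replicates of 7 regions, and 14 Sham libraries reached in by up to 464 bp. The window at chr12:19612001-19613000 was in 16 FT libraries, 5 of replicate 1 and 11 of replicate 2, and 3 Sham libraries touched it.

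The locus at chr11:66975001-66976000 was the only one of these 8 that no Sham peak touched. The nearest Sham peak lay 7219 bp away. It was occupied in 16 FT libraries of 11 regions, with both replicates in CMA, LH, MS, NaCcore and the ventromedial hypothalamus (VMH). Its peaks were weak throughout, from 4.06 in FT CMA replicate 2 to 6.64 in FT VMH replicate 1, with a median of 4.63 and a median width of 1000 bp.

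Of the 4 named loci of 3 windows each, 3 held both FT replicates of NaCcore and BLA at the window of most libraries. At chr7:53865001-53868000 this window lay 15201 bp from the nearest Sham peak and was occupied in 9 FT libraries. These were both replicates of NaCshell, NaCcore, BLA and CMA, and replicate 1 of BNST. The −log10(P-value) was 6.41 and 36.1 in NaCshell replicates 1 and 2, 17.2 and 27.2 in NaCcore, 9.02 and 8.3 in BLA, 15.4 and 6.13 in CMA, and 8.14 in BNST. Both replicates of each of 4 regions were present, and the accumbens held the highest values.

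The locus at chr17:76599001-76602000 had 9 FT libraries at its best window, 9718 bp from the nearest Sham peak, with both replicates in BLA and NaCcore and values from 4.5 to 8.68. The locus at chr16:84220001-84223000 had 12 FT libraries, with both replicates in BLA, CMA, NaCcore and PLC and values from 4.17 to 25.4. Its best window was touched by both Sham CMA libraries, by 391 and 339 bp. The locus at chr18:71249001-71252000 was of another kind, with 6 FT libraries from VMH, arc, BNST and MPOA and both replicates in VMH and arc, at values from 4.44 to 22.0.

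The 5 windows farthest from any Sham peak were occupied in 4 or 5 libraries each, with median −log10(P-value) from 4.91 to 6.63. The window at chr15:105025001-105026000 lay 206398 bp from a Sham peak and was occupied in FT NaCcore replicates 1 and 2 (4.89 and 8.96), FT NaCshell replicate 2 (8.12) and FT LC replicate 1 (4.17). At chr3:174886001-174887000, 134296 bp away, 2 cortical regions gave all 4 libraries, with 7.28 and 5.98 in PLC replicates 1 and 2 and 8.53 and 4.01 in the cingulate cortex (CGC). The windows at chr5:88578001-88579000 (185419 bp away, 5 libraries), chr14:111234001-111235000 (167671 bp, 5 libraries) and chr4:29181001-29182000 (149916 bp, 4 libraries) had medians of 5.19, 4.91 and 6.61. Their strongest peaks were of 16.1 in FT NaCshell replicate 2 at the chromosome 5 window, above the median of 13.0 for other peaks of that library, 5.47 in FT dorDG replicate 2 at the chromosome 14 window and 10.3 in FT NaCcore replicate 2 at the chromosome 4 window.

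Of the 4 Sham-only loci with most libraries, 3 were not touched by an FT peak. The window at chr8:72975001-72976000 was occupied in 19 Sham libraries of 14 regions, with −log10(P-value) from 4.21 to 14.0, and lay 9220 bp from the nearest FT peak. The windows at chr3:140169001-140170000 and chr3:176901001-176902000 were in 17 Sham libraries each, with highest values of 5.82 and 7.01. The window at chr14:46800001-46801000 was in 16 Sham libraries, and FT NaCshell replicate 1, the shortest FT list, was the only FT library that reached into it, by 433 bp.

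Whether the pattern recurs in pools that were not used to choose the windows was examined by applying the rule to the lists of 1 replicate number and measuring the other. The tests were against a difference of 0 and not against the difference over all windows. Over all windows FT exceeded Sham by 18.5 points in replicate 2 and 8.29 in replicate 1, as given below. A low p-value for FT-only windows therefore does not show that their pattern recurs. Within replicate 1, 2250 windows were FT-only. In replicate 2 of the 21 regions with both lists, FT libraries occupied 16.4% ± 12.0 of them and Sham libraries 4.36% ± 5.71. The difference was 12.0 points, it was above 0 in 19 of 21 regions, and its two-sided sign-flip permutation p was 1e-05, the smallest that 100000 resamples can give (adjusted over 4 tests, 1.3e-05). It ran from −1.73 points in InsularCortex to 39.5 in NaCshell.

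Chosen in replicate 2, 5288 windows were FT-only, and in replicate 1 of 24 regions FT libraries occupied 19.1% ± 7.9 and Sham libraries 9.77% ± 7.4 of them. The difference was 9.32 points and above 0 in 20 of 24 regions (permutation p = 1e-05, adjusted p = 1.3e-05). Sham-only windows held the opposite direction. Of the 344 chosen in replicate 1, FT libraries of replicate 2 occupied 5.19% and Sham libraries 14.0%, a difference of −8.83 points that was below 0 in 19 of 21 regions (permutation p = 1e-05, adjusted p = 1.3e-05), and the 642 chosen in replicate 2 differed by −8.55 points in replicate 1, below 0 in 21 of 24 regions (permutation p = 8e-05, adjusted p = 8e-05). The test took regions as independent, but the regions of a replicate number share pooled animals. The p-values can thus be too small even for these pools, and they do not measure the spread between pools.

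The background was itself unequal. Over all 122707 windows of 4 or more libraries in replicate 1, FT exceeded Sham by 18.5 points in replicate 2 (56.6% against 38.1%). This difference was above 0 in 21 of 21 regions. Over 117481 windows chosen in replicate 2, FT exceeded Sham by 8.29 points in replicate 1, and in 19 of 24 regions. A test against 0 therefore cannot separate recurrence of the FT-only pattern from the FT excess over all windows. In points, the FT-only windows did not stand above all windows when measured in replicate 2. The levels were unlike, with 16.4% in FT and 4.36% in Sham for FT-only windows against 56.6% and 38.1%. A comparison in points therefore does not say which set differed more relative to its level. The difference of FT-only windows also went with the length of the lists. In replicate 1 the FT list was shorter than the Sham list in 5 regions, and FT-only windows were less occupied in FT than in Sham in 4 of these, with differences of −1.95 points in InsularCortex, −2.08 in LH, −4.6 in VMH and −1.85 in venDG. In the remaining 19 regions, where the FT list was the longer, all 19 differences were above 0. Sham-only windows followed list length too. Their difference in replicate 1 was below 0 in all 19 regions with a longer FT list (mean −11.0 points). In the 5 regions with a shorter FT list it was above 0 in 3 and below 0 in 2 (mean 0.81 points). In replicate 2 the FT list was longer in 21 of 21 regions, so treatment and list length cannot be told apart there.

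**Figure D5:**
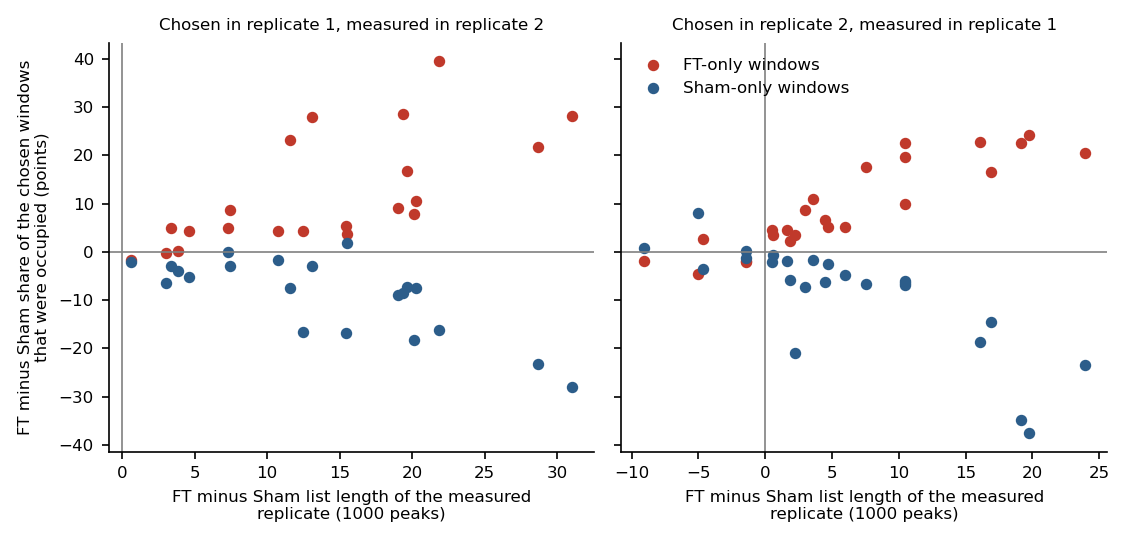
FT minus Sham share, in percentage points, of the chosen windows that were occupied in the replicate that did not choose them (vertical axis), against the FT minus Sham list length of that replicate in units of 1000 peaks (horizontal axis); each point is a brain region, red for FT-only and blue for Sham-only windows. On the right, 4 of the 5 red points left of the vertical line lie below 0 and all 19 red points to its right lie above it.

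With the lists of each region at matched length the held-out differences kept their direction. FT-only windows chosen in replicate 1 (758) were occupied in replicate 2 by 9.42 points more in FT than in Sham, and those chosen in replicate 2 (1669) by 7.67 points more in replicate 1 (permutation, adjusted p = 4e-05 and 2e-05). Sham-only windows differed by −7.99 points (permutation, adjusted p = 2e-05) and by −3.87 points (permutation, adjusted p = 0.0619), and the latter did not pass the threshold of 0.05. The background was unequal at matched length too, with an FT excess of 10.9 points in replicate 2 over all 99714 windows of 4 or more libraries in replicate 1, and of 3.67 points in replicate 1 over the 96459 windows chosen in replicate 2. The FT-only windows thus exceeded all windows, in points, when measured in replicate 1 and not when measured in replicate 2, and the difference from all windows was not tested. Levels were again unlike. In replicate 2, FT occupied 15.0% and Sham 5.55% of the FT-only windows, against 55.2% and 44.3% of all windows.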

How the data were processed

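H3K27ac ChIP-seq peak lists of rat brain were used, 94 in all with 4001711 peaks, and 4 input libraries without a list were not analysed here. The authors aligned reads to Rn5 and called peaks in each library with DFilter. The submitters' processing notes name BWA and rn5, with no version in the sources read. The deposited −log10 p-value of a peak ran from 4 to 200, with 150893 peaks at the ceiling. The deposited maximum filter score was used to order peaks of equal p-value, the deposited tag score, a rounded normalised value, was not used, and the deposited FDR percent was 0 for every peak. No comparison of the authors was used.

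Groups came from the sample labels. Windows of 1000 bp, 500 bp of coverage and 4 libraries were the rule, and the members and locus lists were chosen with earlier results of these data known. Adjoining windows were joined into loci. Named were the 8 loci with most FT libraries (ties by larger distance, then position), the 4 of most windows, the 5 farthest from a Sham peak and the 4 Sham-only loci with most libraries. Distance is in bases to the nearest peak of the other treatment, and 0 where they share a base. Held-out shares were tested by two-sided sign-flip permutation over regions with 100000 resamples and Benjamini-Hochberg adjustment over 4 tests. The methods state that Sham and FT libraries of 1 replicate were processed in parallel, and held-out comparisons were made within that number. The scripts were tested on simulated data with planted windows. Alternatives varied list length, −log10(P-value), coverage, window size, peak centres, number of libraries, replicates and regions. Python 3.11.15, numpy 2.4.6, pandas 2.3.3 and SciPy 1.17.1 were used. The lists hold no read counts, so no counting error could be set.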

Additional observations from a re-analysis of the deposited data

Results flagged for a closer look

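The HB libraries, which the rule left out, occupied some of the windows. HB FT occupied 3.87% of the FT-only windows (210) and HB Sham 0.0921% (5). Over all tested windows they occupied 46.8% and 0.803%. All tested windows include 67637 of 21 or more FT libraries, a range that held no FT-only window. HB occupancy was not compared at an equal number of libraries. HB Sham occupied 27.1% of the Sham-only windows (263) and HB FT 1.65% (16). The HB Sham list stood apart from the other Sham lists. It occupied 10363 windows, its other peaks had a median width of 500 bp, 75.7% of them had a −log10(P-value) under 6 and 10.3% shared a base with an FT peak, against 84.9% or more in each other Sham list. The part of this in the 27.1% was not tested. Each treatment had a single HB list, so there is no replicate check.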

How the results depend on the processing

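The FT-only count (5429) stayed within 1.5 times itself with peaks of −log10(P-value) of 6 or more (5384) or 10 or more (4701), another coverage limit, peak centres, HB kept in and the replicate block (4063). A like count did not mean the same windows, as 2559 of the 5384 and 1071 of the 4701 belonged to the 5429. It became 1380 with equal-size lists, 2058 with no base of the other treatment, 10416, 1610 and 494 at 3, 6 and 8 or more libraries, and 10864 and 2794 with windows of 500 and 2000 bp.
The Sham-only count (971) became 1529 and 380 at 250 and 750 bp of coverage, 2004, 338 and 150 at 3, 6 and 8 or more libraries, 542 under the replicate block, 224 and 49 at −log10(P-value) of 6 and 10 or more, 1577 with peak centres, and 1952 and 220 with windows of 500 and 2000 bp.
Leaving out 1 replicate of a treatment (fewer libraries in the rule) gave 901 to 18166 FT-only windows (lowest without FT replicate 2, highest without Sham replicate 1) and 155 to 2005 Sham-only windows (lowest without Sham replicate 2, highest without FT replicate 1).
Chosen after seeing the data were own peaks of 10 or more with full lists of the other treatment (1071 and 19 windows), lists cut to the shortest of their region (1781 and 1202), and leaving out each region, which gave 4518 (without PLC) to 7485 (without InsularCortex) FT-only and 818 to 1062 Sham-only windows.
The held-out differences kept their sign throughout. Those of FT-only windows passed against 0 under each alternative, but in replicate 2 the FT excess over all windows was the larger each time (13.8 against 9.43 points with peak centres), and whether the 2 differ was not tested. In replicate 1 the FT excess over all windows was the larger with 2 or more libraries (6.75 against 5.18 points). It was the smaller there with equal-size lists (3.28 against 8.67), peaks of 6 or more, peak centres and lists cut by region. Those of Sham-only windows were lost under 2 alternatives, at −1.40 points in replicate 2 with peaks of 6 or more (permutation, adjusted p = 0.422) and at −3.87 points in replicate 1 with lists cut by region (permutation, adjusted p = 0.0619). They could not be run without a replicate, since one chooses and the other tests.
For FT-only windows, peaks of 6 or more gave a median −log10(P-value) of 9.27, a width of 1522 bp and a distance of 795 bp, and equal-size lists gave 30.0 and 2032 bp. Replicate agreement moved by less than its SD, from 31.3% to between 32.6% and 33.3%.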
